A study of Homo sapiens with 4 samples.

Results

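The 9 genes MUC16, MUC1, MUC20, PSCA, EPCAM, MSLN, CEACAM1, CEACAM6 and CD24 encode antigens of the epithelial and tumour cell surface. They were found by an exact match of gene symbol in a table of 17791 genes, and all 9 were present and passed the filter on low values, as did 14851 genes in all. The set was chosen by measured values in part: MUC16 had been seen to lie among the genes furthest above flat culture, and the others were added with their levels in these libraries known. The ratios to flat culture are therefore a description of these genes and support nothing beyond them.

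RNA was sequenced from EPCaTs and from a flat (2D) coculture, with 1 library in each of 4 groups. Every group held PC-3, a human prostate cancer line from a metastasis, together with BJ-5ta, a human foreskin fibroblast line immortalised with telomerase, and no group received a drug. The PF EPCaT held both lines at 5 PC-3 cells to 1 BJ-5ta cell in a gel of poly(ethylene glycol) and fibrinogen (PF), kept in the medium of PC-3 and taken on day 15. Both other EPCaTs differed by an excess of poly(ethylene glycol) diacrylate (PEGDA), a crosslinker, at 2% weight by volume (PF+2%PEGDA) or at 3% (PF+3%PEGDA). For the 2D coculture neither day, medium nor cell ratio is given in the labels, so the gel cannot be told apart from those conditions. RNA of each EPCaT library was pooled from more than 2 tissues, so the spread between tissues was not measured, no p-value between groups is given, and each interval covers counting error only.

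Mucins are glycoproteins whose long stretches of serine and threonine carry O-linked sugars. MUC16, MUC1 and MUC20 span the membrane and hold a sugar coat away from the cell, and the shed part of MUC16 is the CA-125 antigen measured in blood. PSCA, MSLN, CEACAM6 and CD24 are held in the outer leaflet by a glycosylphosphatidylinositol (GPI) anchor, whereas EPCAM and CEACAM1 are transmembrane adhesion proteins. In prostate cancer, PSCA and EPCAM are studied as targets for antibodies and engineered T cells.

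Levels are CPM, read counts per 1000000 of library size after TMM scaling (the trimmed mean of M-values). A gene is called higher or lower where its ratio is at least 2-fold and the exact 95% interval of the ratio excludes equality. Total counts were 13760301 to 15687894 a library, so 1 count was worth 0.0600 to 0.0734 CPM. Among the cell type markers, all 15 epithelial markers and 19 of 20 fibroblast markers were measured. The epithelial markers summed to 6312 CPM in PF, 7150 CPM with 2% PEGDA and 6771 CPM with 3% PEGDA, against 4568 CPM in 2D. The fibroblast markers summed to 3235, 3802 and 3186 CPM in the same order and to 10545 CPM in 2D. CTNNA1, a catenin gene that PC-3 lacks by deletion, measured 5.40, 6.18 and 8.29 CPM in the EPCaTs against 33.1 CPM in 2D. In such bulk RNA, fewer cells of a type and less RNA per cell cannot be told apart, and the part of the cell mix in the results below was not tested.

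The stretch around the transcription start is shown for MUC16, MUC1 and the paralogs CEACAM6 and CEACAM1, which moved by very different amounts. Each sequence runs 5′ to 3′ from 250 bases before to 50 bases after a start site in RefSeq, on GRCh38.p14. RefSeq windows were matched for 5 of the 9 genes (MUC16, MUC1, CEACAM1, CEACAM6 and CD24). Capitals mark the letters ACGTG or GCGTG, the core of hypoxia response elements, and CAGGTG, the E-box letters read by SNAI and ZEB repressors, each searched on both strands.
MUC16, chr19:9010360-9010659, minus strand: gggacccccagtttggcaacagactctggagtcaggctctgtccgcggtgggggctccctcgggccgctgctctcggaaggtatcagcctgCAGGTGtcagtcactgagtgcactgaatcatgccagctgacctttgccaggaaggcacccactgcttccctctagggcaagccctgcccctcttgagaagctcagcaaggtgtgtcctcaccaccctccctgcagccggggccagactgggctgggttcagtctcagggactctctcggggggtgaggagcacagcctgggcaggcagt
MUC1, chr1:155192860-155193159, minus strand: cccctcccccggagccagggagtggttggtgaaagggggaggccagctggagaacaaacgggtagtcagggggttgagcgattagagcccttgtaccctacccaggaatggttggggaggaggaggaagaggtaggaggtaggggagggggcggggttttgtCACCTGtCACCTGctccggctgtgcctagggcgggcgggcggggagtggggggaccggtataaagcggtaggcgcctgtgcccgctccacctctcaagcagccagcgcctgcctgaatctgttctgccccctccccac
CEACAM6, chr19:41755280-41755579, plus strand: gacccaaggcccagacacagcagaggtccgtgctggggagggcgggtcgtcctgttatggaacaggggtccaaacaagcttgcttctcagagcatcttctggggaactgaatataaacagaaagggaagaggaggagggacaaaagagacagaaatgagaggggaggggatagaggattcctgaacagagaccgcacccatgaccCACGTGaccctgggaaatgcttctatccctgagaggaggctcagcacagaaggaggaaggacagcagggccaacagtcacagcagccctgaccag
CEACAM1, chr19:42528432-42528731, minus strand: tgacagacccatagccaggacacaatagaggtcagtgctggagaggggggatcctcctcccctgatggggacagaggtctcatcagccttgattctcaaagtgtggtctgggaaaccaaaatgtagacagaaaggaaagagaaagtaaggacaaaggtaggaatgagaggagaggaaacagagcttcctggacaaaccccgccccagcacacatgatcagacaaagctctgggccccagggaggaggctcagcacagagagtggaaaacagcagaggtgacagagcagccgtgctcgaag
The MUC1 window held CAGGTG 2 times in its reverse form, beginning 88 and 81 bases before the start. The MUC16 window held it 1 time, beginning 159 bases before the start, and 20.6% of 35116 RefSeq windows of this length held it. The CEACAM6 window held CACGTG, in which the first hypoxia core reads on both strands, beginning 45 bases before the start, and 21.4% of windows held that core. The second hypoxia core was found in 36.5% of all windows and in none of the 4 shown. AGGAAG, an ETS core, was present in each of the 4, against 33.6% of all windows, and the grainyhead letters AACCNGTT were in none of them, against 1.73%. The CD24 window, matched but not shown, held neither AGGAAG nor AACCNGTT. It did hold the second hypoxia core, beginning 63 bases before the start, and CAGGTG, beginning 249 bases before the start. The CEACAM6 and CEACAM1 windows were identical at 214 of 286 aligned bases (74.8%), which is the closest pair of the 4. A match is a description of these letters only. The MUC16 window lies 29067 bases upstream of the first start that GENCODE release 29 gives for that gene, and its use in these cells was not tested.

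MUC16 lies on chromosome 19 (8848844 to 8981342, minus strand, GRCh38), with 43830 exonic bases. Its level was 158 CPM in PF, 70.2 CPM with 2% PEGDA, 73.4 CPM with 3% PEGDA and 0.749 CPM in 2D, from 2630, 1090, 1000 and 11 counts. All 3 EPCaTs were far above 2D and the PF tissue was above both PEGDA tissues. In PF the ratio to 2D was 211 (interval 117 to 422). With 2% PEGDA it was 93.7 (52.2 to 188), and the 3% PEGDA tissue had a ratio of 97.9 (54.5 to 197). Among 14851 tested genes these ratios ranked 6, 17 and 15 from the highest. The 11 counts of 2D set most of the width of these intervals.

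PSCA, the prostate stem cell antigen gene of the LY6 family (chromosome 8, 142670308 to 142682724, plus strand), measured 46.5, 69.1 and 71.6 CPM in the 3 EPCaTs against 3.47 CPM in 2D. It too was higher in all 3 EPCaTs, and here the PF tissue was the lowest of the 3. Against 2D, PSCA was 13.4-fold higher in PF (interval 10.1 to 18.1). It was 19.9-fold higher with 2% PEGDA (15.0 to 26.9), and 20.6-fold higher where PEGDA was 3% (15.5 to 27.9). Exons of JRK, a gene on the other strand, share 368 bases with PSCA, or 20.9% of its exonic length, and the library kit does not mark strand. JRK had 129 CPM in PF, 91.3 CPM with 2% PEGDA, 85.3 CPM with 3% PEGDA and 25.7 CPM in 2D, so it was also higher than 2D in each EPCaT. Between gels JRK was highest in PF, where PSCA was lowest. How reads of the shared stretch were assigned is not given in the sources used here.

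**Figure D1:**
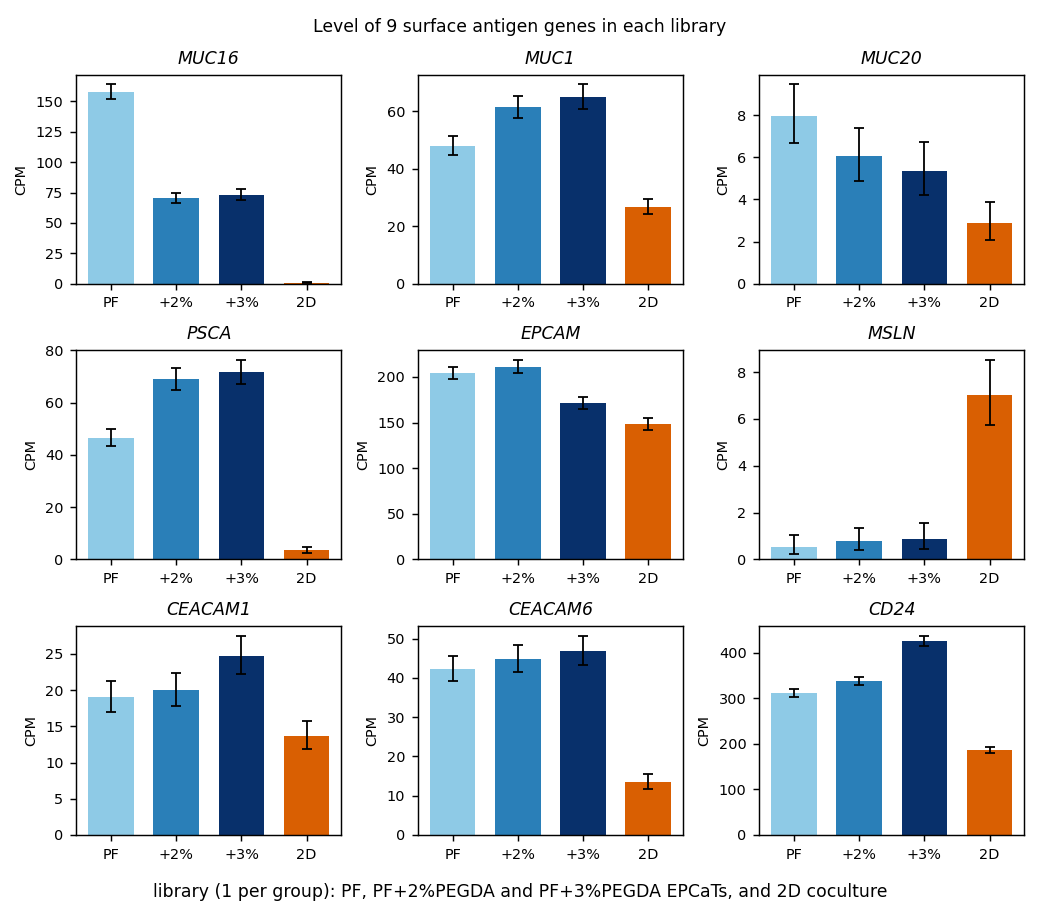
Level of each of the 9 genes in CPM, with 1 bar for each of the 4 libraries and an exact 95% Poisson interval of counting error. MUC16 and PSCA were near 0 in 2D (0.749 and 3.47 CPM), MSLN stood highest in 2D at 7.02 CPM, and EPCAM was the most even.

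MSLN went the other way. It encodes mesothelin, a GPI-anchored protein that binds MUC16 (chromosome 16, 760762 to 768865, plus strand), and measured 0.540, 0.773 and 0.880 CPM in the 3 EPCaTs against 7.02 CPM in 2D. These are 9, 12 and 12 counts against 103, and the 3 EPCaTs did not differ beyond counting error. MSLN was 13.0-fold lower than 2D in PF (interval 6.59 to 29.2), 9.08-fold lower with 2% PEGDA (4.98 to 18.1) and 7.97-fold lower with 3% PEGDA (4.37 to 15.9). Genes of both partners, MUC16 and mesothelin, were thus called in each EPCaT, in opposite directions. MUC16 passed the filter on low values through the EPCaTs alone and MSLN through 2D alone, so nothing is read from these directions.

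The CEACAM genes encode adhesion proteins of the immunoglobulin superfamily. CEACAM6, the GPI-anchored member (chromosome 19, 41750977 to 41772208, plus strand), measured 42.3, 44.8 and 47.0 CPM in the 3 EPCaTs against 13.4 CPM in 2D. Its ratio was 3.16 (interval 2.69 to 3.71), 3.34 (2.85 to 3.93) and 3.50 (2.98 to 4.13) in PF, 2% PEGDA and 3% PEGDA. The 3 EPCaTs did not differ beyond counting error and all were called higher. CEACAM1, a transmembrane member whose long tail can inhibit signalling (chromosome 19, 42507304 to 42561234, minus strand), measured 19.0, 20.0 and 24.7 CPM and 13.7 CPM in 2D. Its ratios of 1.39, 1.46 and 1.81 had intervals above equality (lowest bound 1.16), but none reached 2-fold. Of the 50-base stretches of their transcripts, 6.99% for CEACAM6 and 4.28% for CEACAM1 also occur in another gene.

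Of the other transmembrane mucins, MUC1 encodes a mucin with a tandem-repeat region and a signalling tail (chromosome 1, 155185824 to 155192916, minus strand). It measured 48.0, 61.3 and 64.8 CPM in the 3 EPCaTs against 26.8 CPM in 2D. The ratios were 1.79 (interval 1.59 to 2.03), 2.29 (2.03 to 2.58) and 2.42 (2.15 to 2.73), so MUC1 was called higher in both PEGDA tissues and missed the 2-fold rule in PF. With total counts as the only scaling the log2 ratio in PF was 1.02 in place of 0.84, and was called. MUC20, a short mucin known to bind the receptor MET (chromosome 3, 195720882 to 195741123, plus strand), measured 7.98, 6.06 and 5.36 CPM and 2.86 CPM in 2D. It was called higher in PF (2.79-fold, interval 1.96 to 4.04) and with 2% PEGDA (2.12-fold, 1.46 to 3.12), and its ratio with 3% PEGDA was 1.87 (1.26 to 2.81). MUC20 is uncertain as a locus, since 54.1% of its 50-base stretches also occur in other genes, chiefly the overlapping transcript MUC20-OT1 (42.3%) and the pseudogene MUC20P1 (21.5%).

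EPCAM and CD24 were the most abundant of the 9. EPCAM, the adhesion protein used to capture circulating tumour cells (chromosome 2, 47345158 to 47387601, plus strand), measured 204, 211 and 171 CPM in the 3 EPCaTs against 148 CPM in 2D. Its ratios of 1.38, 1.42 and 1.15 were the smallest among the 8 genes that lay above 2D, and none was called. CD24, a short and heavily glycosylated protein that binds Siglec receptors of immune cells (chromosome 6, 106969831 to 106975627, minus strand), measured 311, 339 and 427 CPM and 186 CPM in 2D. It was called higher with 3% PEGDA (2.29-fold, interval 2.19 to 2.40), while its ratios were 1.67 in PF and 1.82 with 2% PEGDA. CD24 has retrocopies in the genome, and 5.26% of its 50-base stretches occur in other genes.

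**Figure D2:**
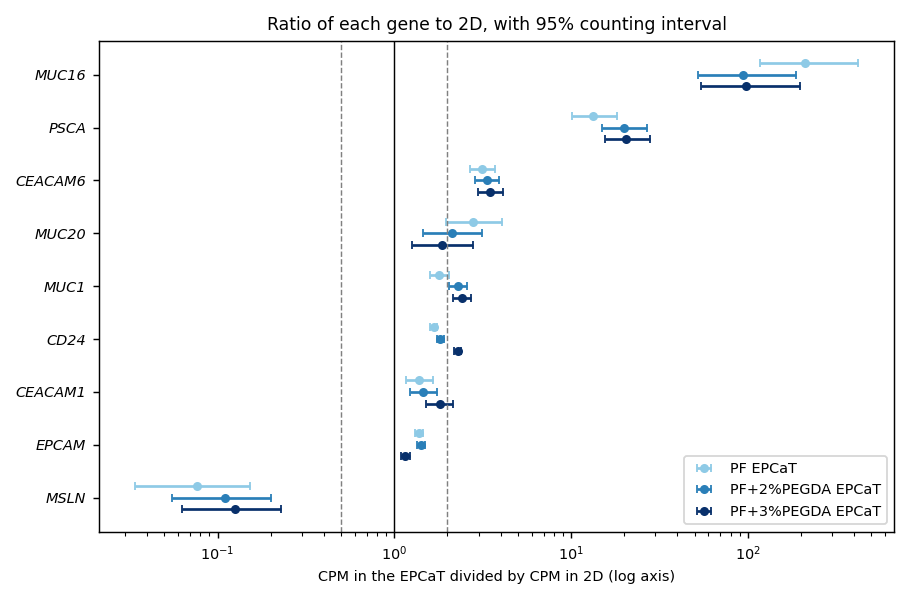
CPM in each EPCaT divided by CPM in 2D on a log axis, with the exact 95% interval of the ratio; the solid line marks equality and dashed lines 2-fold. MUC16 and PSCA lie at 13.4 or more, MSLN lies below 1 in all 3 EPCaTs, and the other 6 genes lie between 1.15 and 3.50.

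Counted over the set, 4 of 9 genes were higher in the PF EPCaT and 1 was lower. Of the 14851 genes, 16.5% passed the same rule upward there and 12.0% downward. With 2% PEGDA 5 were higher and 1 lower, against 12.4% and 9.45% of all genes. With 3% PEGDA again 5 were higher and 1 lower, against 12.1% and 10.4%. MUC16, PSCA and CEACAM6 were higher in all 3 EPCaTs, as were 7.85% of all genes, and MSLN was lower in all 3, as were 6.07%. The median log2 ratio of the 9 was 0.84 in PF, 1.07 with 2% PEGDA and 1.19 with 3% PEGDA, where that of all tested genes was 0.02, 0.01 and 0.00. The 3 ratios of a gene share the 2D library. Since these values went into the choice of genes, nothing is read from the counts. MUC16 passed the filter on low values through the EPCaTs alone and MSLN through 2D alone, so each had to differ.

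**Figure D3:**
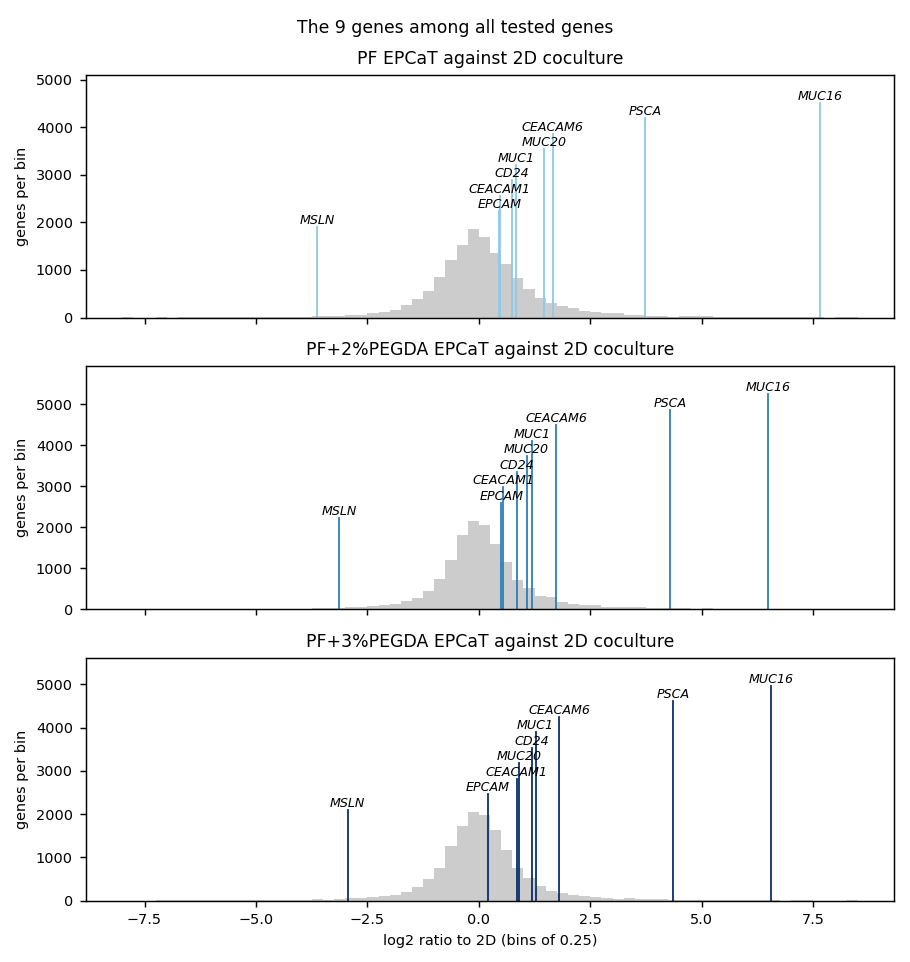
Number of tested genes by log2 ratio to 2D in bins of 0.25, 1 panel for each EPCaT, with labelled lines at the 9 genes (line height only separates the labels). MUC16 lies at 7.65, 6.49 and 6.55 in the 3 panels and PSCA at 3.73, 4.30 and 4.35, on the right flank of the distribution. EPCAM lies at 0.46, 0.51 and 0.21, which are percentiles 68.3, 74.6 and 61.0 of the tested genes.

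Between gels the differences were smaller, and only MUC16 passed the 2-fold rule. MUC16 was 2.25-fold lower with 2% PEGDA than in PF (interval 2.09 to 2.41) and 2.15-fold lower with 3% PEGDA (2.00 to 2.31). The PEGDA tissues did not differ from each other beyond counting error (ratio 1.05, 0.958 to 1.14). Of the 9 genes 1 was thus lower and 0 higher with 2% PEGDA than in PF, against 5.56% lower and 2.98% higher among all genes. With 3% PEGDA the count was also 1 lower and 0 higher, against 7.49% and 3.64%. MUC16 has a very long messenger RNA, and the 500 tested genes nearest to it in exon length had a median log2 ratio of -0.27 in both comparisons. MUC16 lies at the long end of the length order, so these were in effect the 500 longest tested genes and were not centred on its length. With that median subtracted, the log2 ratio of MUC16 was -0.89 with 2% PEGDA and -0.83 with 3% PEGDA, and neither was called. Between 3% and 2% PEGDA none of the 9 was called, against 1.87% higher and 2.39% lower among all genes, and the smallest and largest of the 9 ratios were 0.811 for EPCAM and 1.26 for CD24.

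Below the size rule, the order of the gels differed from gene to gene. PSCA stood 1.49-fold above PF with 2% PEGDA (interval 1.35 to 1.63) and 1.54-fold with 3% PEGDA (1.40 to 1.69), and MUC1 1.28-fold (1.16 to 1.41) and 1.35-fold (1.23 to 1.49). On the log2 scale those PSCA steps were 0.57 and 0.62. The 500 genes nearest to PSCA in exon length had medians of 0.24 and 0.21 in the same comparisons. CD24 was ordered PF, 2% PEGDA, 3% PEGDA, with steps of 1.09-fold and 1.26-fold whose intervals each excluded equality. Its first step was 0.12 on the log2 scale, below the median of 0.16 for the 500 genes nearest to CD24 in exon length. The order of PF and 2% PEGDA for CD24 therefore depends on the correction for exon length. MUC20 had the reverse order of gels, with 3% PEGDA at 0.671 of PF (0.498 to 0.900) and no difference between the PEGDA tissues beyond counting error. EPCAM in the 3% PEGDA tissue was 0.838 of PF (0.795 to 0.884), and CEACAM1 was 1.30 times PF (1.11 to 1.52). CEACAM6 and MSLN showed no step between gels whose interval excluded equality. For all 9 genes, the step between 2D and the nearest EPCaT had an interval that excluded equality.

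Levels of different genes were compared per exonic base, as counts per base scaled to 1000000 in each library. CD24 and EPCAM stood first and second in every library, at 482 and 389 in PF and 224 and 220 in 2D. PSCA was the third in each EPCaT (126, 162 and 163 in PF, 2% PEGDA and 3% PEGDA) and had 7.35 in 2D, which moved it from the 30.4th percentile of tested genes in 2D to the 88.0th in PF. MUC16, long as it is, came to 17.3 per base in PF, where CEACAM1 had 16.5, and to 6.61 and 6.72 in the PEGDA tissues. In 2D MUC16 came to 0.0637, the lowest of the 9. MSLN at 10.2 stood above MUC16 and PSCA in 2D and was the lowest of the 9 in each EPCaT, at 1.01 to 1.38. With the longest transcript in place of all exons, EPCAM stood above CD24 in 2D (230.1 and 198), and MUC16 stood below MUC20 in the PEGDA tissues (4.73 and 6.29 with 2% PEGDA) but not in PF (12.4 and 9.70). That length also put MUC16 below CEACAM1 in PF (12.4 and 18.7) and MSLN below PSCA in 2D (7.75 and 9.10), so the order within these pairs depends on the length used.

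**Figure D4:**
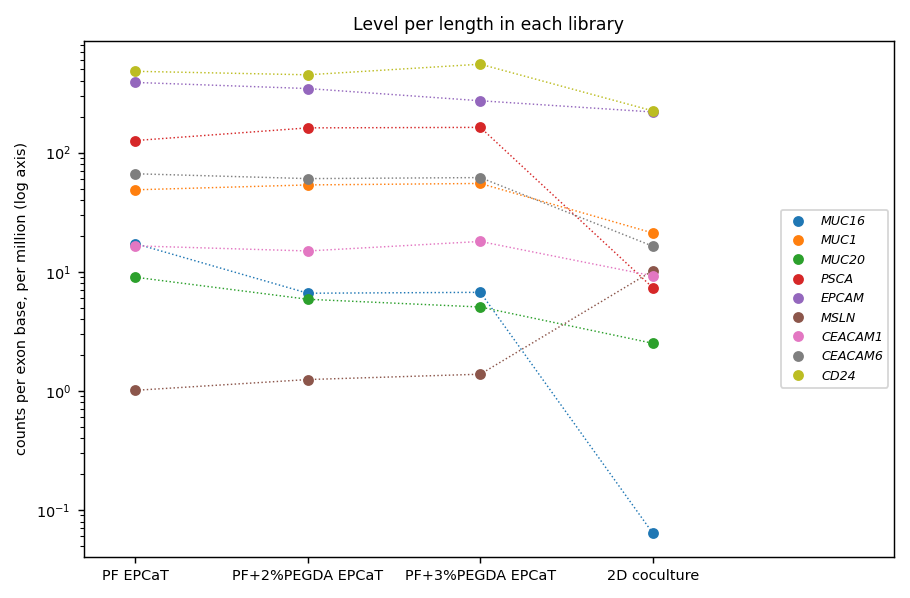
Counts per exonic base, scaled to 1000000 in each library, on a log axis, with 1 point for each gene and library (dotted lines only link the points of a gene; 1 library per group, no error bars). MUC16 runs from 17.3 in PF to 0.0637 in 2D and MSLN from 1.01 to 10.2, so the places of both among the 9 differ between the EPCaTs and 2D.

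The epithelial markers give a scale for a general shift of epithelial RNA. Their median log2 ratio to 2D was 0.60, 0.59 and 0.55 in PF, 2% PEGDA and 3% PEGDA, with 3 of 15 higher in all 3 EPCaTs (CDH1, ELF3 and ST14) and 0 lower, against 7.85% and 6.07% of all genes. None of the 15 had a ratio as large as that of MUC16 or PSCA in any EPCaT, and every one had a ratio above that of MSLN. The 9 genes were chosen with their levels in these libraries known. MUC16 passed the filter on low values through the EPCaTs alone and MSLN through 2D alone. The places of the 9 among these markers are therefore a description, and nothing is read from them. CEACAM6 was passed by 1 of the 15 in PF and by 0 in either PEGDA tissue. EPCAM was passed by 8, 9 and 12 of the 15, and CEACAM1 by 8, 9 and 5, so both lay among the epithelial markers. Of 19 measured fibroblast markers, 13 were lower in all 3 EPCaTs and 0 higher (all genes 6.07% and 7.85%), and none of the 19 was at 0 in any library. PDGFRB (8.93- to 13.8-fold) and COL1A1 (4.77- to 7.07-fold) were among the lower ones. COL5A2 was instead called higher in PF, at 513 CPM against 230 CPM in 2D. PDGFRA lay above 2D in all 3 (ratios of 1.13 to 1.43) and was not called. Of 5 measured endothelial and blood markers, cell types not seeded, 4 were higher in all 3, against 7.85% of all genes. Those 4 were PECAM1, KDR, ESAM and LYZ. LYZ passed the filter on low values through the EPCaTs alone, so the filter favoured a ratio above 2D for it. The 9 such markers in the table summed to 260.5, 307 and 361 CPM in the EPCaTs against 39.7 CPM in 2D. The part of any of these in the 9 genes was not tested.

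The remaining mucin genes were taken as a list. Of 19, 10 were measured, and those called in all 3 EPCaTs were 4 higher and 0 lower, against 7.85% and 6.07% of all genes. Singly, PF had 7 higher, 2% PEGDA 6 and 3% PEGDA 5, against 16.5%, 12.4% and 12.1% of all genes. MUC12, MUC13, MUC15 and MUCL1 passed the filter on low values through the EPCaTs alone, so the filter favoured a ratio above 2D for each. Averaged over the EPCaTs, the log2 ratios of the 10 measured mucins had a median of 1.15, where all tested genes had 0.00. MUC5B, a gel-forming secreted mucin of airways and glands, measured 699, 557 and 547 CPM in the EPCaTs against 36.3 CPM in 2D, which is 15.1- to 19.2-fold higher. MUC5AC, the gel-forming mucin of stomach and airway, was 3.70- to 4.14-fold higher, the transmembrane mucin gene MUC13 2.70- to 4.15-fold and MUCL1 4.40- to 6.30-fold. CD164, a small sialomucin of the cell surface, measured 966, 1087, 1334 and 522 CPM in PF, 2% PEGDA, 3% PEGDA and 2D and was called in both PEGDA tissues. MUC2, an intestinal gel-forming mucin, measured 13.0, 11.1, 9.83 and 5.52 CPM and was called in PF and with 2% PEGDA, and MUC3A lay within 2-fold (17.1, 18.7, 23.4 and 20.7 CPM). Of 10 other CEACAM genes 3 were measured. CEACAM5, the carcinoembryonic antigen gene and neighbour of CEACAM6 in its cluster, measured 373, 312 and 375 CPM in the EPCaTs against 37.9 CPM in 2D (8.25- to 9.91-fold higher), with 1.33% of the 50-base stretches of CEACAM6 in common. CEACAM3 had 0.600 to 1.10 CPM in the EPCaTs against 0.341 CPM in 2D, was called in both PEGDA tissues, and rested on 5 to 16 counts a library. It passed the filter on low values through the PEGDA tissues alone, so the filter favoured those calls. CEACAM19 lay within 2-fold.

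In the LY6 and uPAR family, to which PSCA belongs, 10 of 17 genes were measured, of which 4 were higher throughout the EPCaTs and 2 lower (median -0.10), against 7.85% and 6.07% of all genes. LYPD3, a GPI-anchored protein of squamous epithelium, measured 22.9, 33.8 and 33.2 CPM in the EPCaTs against 4.50 CPM in 2D (5.10- to 7.51-fold higher). LYPD5, LY6G6C and LY6K were also higher, but none of them exceeded 3 CPM in any library and each passed the filter through the EPCaTs alone. LYPD1 and LYPD6B were the lower ones, at 2.71- to 7.29-fold and 5.97- to 12.8-fold, and LYPD6B passed the filter through 2D alone. CD59, which protects cells from complement, measured 477, 719 and 859 CPM in the EPCaTs against 873 CPM in 2D, and LY6E lay within 2-fold. PLAUR, the urokinase receptor gene, measured 28.9, 38.4, 43.4 and 64.0 CPM in PF, 2% PEGDA, 3% PEGDA and 2D and was called lower in PF alone.

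Of 31 tumour surface antigen genes outside these families 26 were measured, of which 4 were higher throughout the EPCaTs and 6 lower (median 0.02), where all genes had shares of 7.85% and 6.07%. FOLH1 passed the filter on low values through the EPCaTs alone and IL13RA2 through 2D alone. The higher ones were NECTIN4, an adhesion protein targeted by an antibody-drug conjugate (2.98- to 5.18-fold), the tetraspanin gene TSPAN8 (2.83- to 4.29-fold), GRPR, the gastrin-releasing peptide receptor gene (2.27- to 2.46-fold), and FOLH1. FOLH1, which encodes prostate-specific membrane antigen, measured 1.38, 0.966 and 1.47 CPM in the EPCaTs against 0.272 CPM in 2D, so it was near the detection limit throughout. The lower ones included CD70 (5.25- to 17.2-fold), IL13RA2 (4.23- to 13.6-fold), the adhesion molecule gene L1CAM (4.00- to 5.15-fold) and the poliovirus receptor gene PVR (4.37- to 4.68-fold). CDCP1 measured 745, 832, 883 and 1538 CPM in PF, 2% PEGDA, 3% PEGDA and 2D and was called lower in PF alone, and ALCAM and TM4SF1 lay within 2-fold.

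Genes of the enzymes that modify these proteins, and of proteins that bind or cut them, were counted in the same way, against the same 7.85% higher and 6.07% lower among all genes. Of 24 genes of mucin-type O-glycosylation 23 were measured, with a median log2 ratio of 0.08, and the only gene called in all 3 EPCaTs was ST6GALNAC2, a sialyltransferase gene, at 3.09- to 4.80-fold higher. ST3GAL1, which caps the core sugar with sialic acid, measured 1344, 1161, 1164 and 912 CPM in PF, 2% PEGDA, 3% PEGDA and 2D, and GALNT2, which adds the first sugar, 340.0, 342, 336 and 289.9 CPM. Of 28 genes that build and attach GPI anchors, all measured, 1 was higher in all 3 and 0 lower (median 0.09). That gene was PGAP1, which remodels the anchor after attachment, at 38.0, 37.2 and 40.2 CPM in the EPCaTs against 8.58 CPM in 2D. GPAA1 and PIGT, subunits of the transamidase that attaches the anchor, lay within 2-fold. Among 23 partners and sheddases of the 9 proteins 21 were measured (median -0.16), and only FHL2, a LIM protein that binds the released tail of EPCAM, was called in all 3, at 3.37- to 3.69-fold lower. LGALS1, a galectin gene, measured 273, 452, 484 and 548 CPM in PF, 2% PEGDA, 3% PEGDA and 2D and was called lower in PF alone. LGALS3, a galectin that binds mucin sugars, MET and PTPN11, a phosphatase that binds the tail of CEACAM1, lay within 2-fold.

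**Figure D5:**
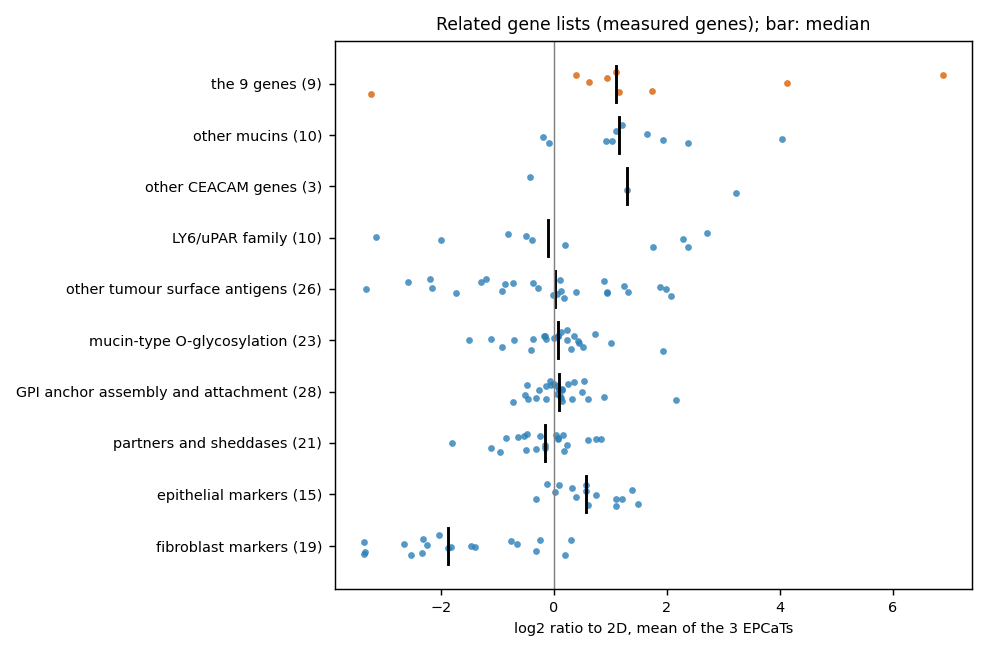
Log2 ratio to 2D, as the mean of the 3 EPCaTs, for each measured gene of the 9 (orange) and of related lists (blue), with the number measured in parentheses and a bar at the median. The other mucins have a median of 1.15, the O-glycosylation and GPI anchor lists lie near 0 (0.08 and 0.09), and the fibroblast markers have a median of -1.88.

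Transcription factors of the epithelial state were set beside the surface genes. Among 13 measured factors and splicing regulators of epithelium, with a median of 0.61, 5 were called higher in all 3 tissues and 0 lower, against 7.85% and 6.07% of all genes. They were OVOL1 (3.44- to 4.19-fold), the ETS factor genes EHF (3.01- to 4.08-fold) and ELF3 (2.55- to 2.67-fold), and the grainyhead genes GRHL3 (2.69- to 2.95-fold) and GRHL1 (2.23- to 3.64-fold). FOXA1, ESRP1 and KLF5 lay within 2-fold. ELF3 is also among the epithelial markers above, so the lists are not separate. The 6 measured repressors of epithelial genes had a median of -1.29, and 0 were called higher, with TWIST1 at 22.2, 20.4 and 17.5 CPM in the EPCaTs against 18.1 CPM in 2D. Lower throughout were 3 (all genes 6.07%), namely SNAI2 (8.69- to 13.2-fold), ZEB2 (3.36- to 6.13-fold) and TWIST2 (2.99- to 4.37-fold). Fibroblasts also express these repressors, and 13 of 19 fibroblast markers were lower in the same libraries. The part of the cell mix in the repressor ratios was not tested.

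The genes most like MUC16 and PSCA were those with the smallest Euclidean distance between log2 profiles over the 4 libraries, each centred on its own mean, among 12362 genes with at least 5 CPM in their highest library. For MUC16 they were C2orf72 (distance 0.56), PPFIA4 (0.67), ABCB11 (0.91), ESCO2 (1.27) and KRT37 (1.36). Their 2D counts of 1 to 7 make these distances imprecise. C2orf72 measured 63.3, 33.0 and 30.0 CPM in PF, 2% PEGDA and 3% PEGDA and 0.477 CPM in 2D, and so shared with MUC16 the highest value in PF. For PSCA they were HILPDA (0.24), CP (0.25), ARMH4 (0.27), LSAMP (0.30) and LANCL3 (0.31). HILPDA, a lipid droplet gene induced by low oxygen, measured 176, 257, 295 and 16.1 CPM, and CP, the ceruloplasmin gene, 8.52, 11.6, 12.5 and 0.477 CPM. Over 4 libraries a distance describes these profiles only.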

How the data were processed

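The authors deposited 1 table of expected counts, estimated reads per gene that are not scaled between libraries. Per the submitters' processing notes, FastQC, STAR and Partek and the build hg38 were used; versions, annotation and the counting method are not given in the sources used here. Per the labels, RNA was column-purified and libraries came from a TruSeq RNA v2 kit. Between 18.2% and 19.9% of values per library were not whole (tolerance 0.01), and values were rounded. Genes with at least 1 CPM of the unscaled total in 1 or more libraries were tested. Libraries were scaled by TMM on these genes (edgeR 4.0.16, R 4.3.3). Ratios are plain CPM ratios with exact Clopper-Pearson 95% intervals, levels have exact Poisson intervals, and log2 ratios, ranks, calls and medians use a prior count of 0.5. In simulated pairs of libraries with counting error alone, each comparison recovered 100 of 100 genes set 4-fold apart and 100 of 100 set 8-fold apart, and called 35 to 56 of 14651 left equal.

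Of all symbols, 16628 matched GENCODE release 29 on the same chromosome, which gave places, exon lengths and the 50-base stretches shared with other genes. Promoters and motifs came from RefSeq windows. Named genes were the 9, the 5 most like MUC16 and PSCA, CTNNA1, and of each list the 4 most abundant and up to 4 called in all 3 EPCaTs in each direction; JRK was added after its values were seen, because it overlaps PSCA. The genes, lists and tests were chosen with earlier results of these data known. Also tried were size factors of DESeq2 1.42.0, unscaled total counts, no filter, a prior count of 2, a 4-fold rule and a correction for exon length. Intervals were computed with scipy 1.17.1 under Python 3.11.15 and plots drawn with matplotlib 3.10.9.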

Additional observations from a re-analysis of the deposited data

How the results depend on the processing

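Of 54 log2 ratios (9 genes in 6 comparisons), 54 kept direction and call with DESeq2 size factors, with no filter and with a prior count of 2. With total counts 1 gained its call (MUC1 in PF against 2D) and 1 uncalled ratio changed sign (EPCAM between 2% PEGDA and PF). Total counts raised the median of all genes by 0.18, 0.11 and 0.08 on the log2 scale in PF, 2% and 3% PEGDA against 2D. Subtracting the median of the 500 genes nearest in exon length lost both MUC16 calls between gels (-0.89 and -0.83 on the log2 scale). For MUC16 these were in effect the 500 longest genes. That left 0 genes of the set lower with 2% and 0 with 3% PEGDA than in PF. The same correction changed the sign of 3 uncalled ratios, those of CD24, EPCAM and CEACAM6 between 2% PEGDA and PF. Under a 4-fold rule, which by construction calls fewer, 2 of the 9 (MUC16 and PSCA) were higher than 2D in PF, 2 with 2% PEGDA and 2 with 3% PEGDA, MSLN stayed lower in each, and 0 were lower with 2% or 3% PEGDA than in PF. Over all tested genes that rule gave 958 higher and 462 lower (2448 and 1785 under the 2-fold rule) in PF against 2D, 661 and 395 (1843 and 1403) with 2% PEGDA, and 675 and 466 (1795 and 1539) with 3% PEGDA. Between gels it gave 96 and 208 (443 and 825) for 2% PEGDA against PF, 99 and 292 (540 and 1112) for 3% PEGDA against PF, and 76 and 94 (277 and 355) for 3% against 2% PEGDA. With no filter the last comparison had 420 genes higher, since more genes were counted. With the longest transcript as length, 26 of 36 levels per base moved beyond counting error. Depth limits MSLN in the EPCaTs (9 to 12 counts) and MUC16 in 2D (11 counts). No paired analysis was possible because each group had 1 library.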
